A study of Mus musculus with 8 samples.

Results

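Collagens and laminins are the structural chains of the extracellular matrix. Each molecule is a trimer of such chains, so the make-up of a matrix depends on which chain genes a tissue transcribes. Fibrillar collagens such as types I, III and V form the fibres of scar and portal tracts, collagen IV and the laminins build the sheet-like basement membranes under epithelia and around vessels, and the remaining collagens decorate fibrils, form beaded filaments or sit in cell membranes. In liver the fibrillar chains come mainly from stellate cells and portal fibroblasts, bile ducts and vessels rest on basement membranes, and hepatocytes are a known source of collagen XVIII.

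The chains were chosen by name: every gene of the deposited table with a collagen or laminin chain symbol and a summed count of at least 15 over all libraries. This gave 45 of the 55 such genes, out of 35976 genes in all, of which 34 are collagens and 11 are laminins. They were divided into 9 fibrillar chains, 17 basement membrane chains (collagen IV and laminins) and 19 others. Just inside the count minimum were Col6a4, with 17 counts, and Col6a6, with 20, and just outside it were Col9a2, with 12, and Col28a1, with 10. The 10 genes left out were Col2a1, Col9a1, Col9a2, Col10a1, Col11a1, Col17a1, Col19a1, Col22a1, Col26a1 and Col28a1.

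RNA was sequenced from whole liver of mice on a high fat diet, 5 labelled CTRL (WT in the sample titles) and 3 labelled OPA1 LKO, in which Opa1, the gene of the inner mitochondrial membrane fusion GTPase, was deleted in hepatocytes. All 8 samples thus share the diet, and there is no group on another diet. The labels do not state age, sex, strain, the driver of the deletion, the alleles that the controls carry, or whether each sample is a separate animal, so the p-values capture only how far these samples vary from one another, a variation that may be technical. In whole tissue, fewer cells of a type and less RNA per cell cannot be told apart.

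The libraries held 16076404 to 20471271 estimated reads on genes. Opa1 was at 48.1 ± 6.90 CPM (counts scaled to library size with TMM factors; SD, n = 5) in CTRL and 31.0 ± 5.53 (SD, n = 3) in OPA1 LKO, with each OPA1 LKO library below each CTRL library and an adjusted p of 0.0539 by edgeR. Of 10 hepatocyte markers 1 was higher, Tat (1.61 ± 0.26 on the log2 scale, SE), and 1 lower, Cyp2f2 (-0.89 ± 0.16), while Alb and Hnf4a, at 0.13 ± 0.27 and 0.03 ± 0.14, did not pass. CTRL replicate 1 stood apart, where Apoe reached 133.8 CPM and the remaining 7 libraries held 20760 to 33180 CPM. OPA1 LKO replicate 2 held far more smooth muscle transcripts than its group, with the smooth muscle actin Acta2 at 31.6 CPM against 1.15 and 1.72 CPM in OPA1 LKO replicates 1 and 3. Results that rest on either library are given with and without it.

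Basement membrane chains were the class with the most chains that passed the test. Of the 17 chains, all of which could be tested, 10 were higher in OPA1 LKO and 0 were lower by the quasi-likelihood test of edgeR, at an adjusted p under 0.05 over all 14036 genes. No basement membrane chain was lower at an unadjusted p under 0.05 or by DESeq2 either. Over all genes tested 3.34% were called higher and 2.69% lower. The median log2 fold change of the class was 1.21, against -0.03 for all genes. Summed over the class, the level in TPM, a unit corrected for transcript length, was between 7.87 and 20.2 in CTRL and between 21.5 and 32.4 in OPA1 LKO. The CTRL maximum was in CTRL replicate 1, and the other CTRL libraries reached 13.9 TPM.

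**Figure D1:**
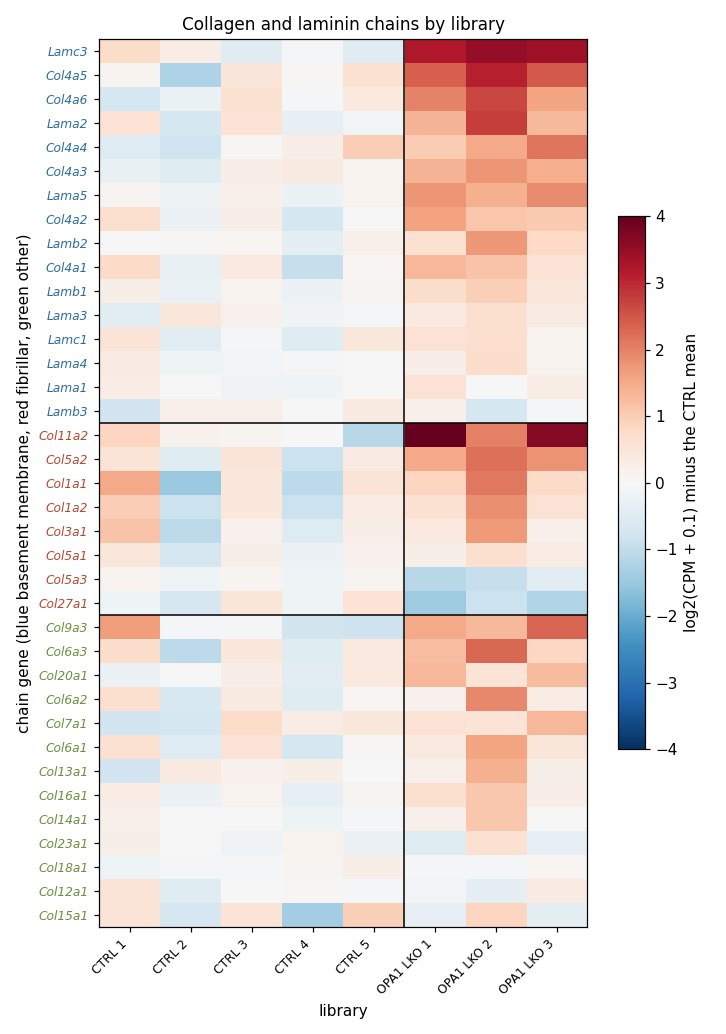
Level of 37 of the tested chains in each library, as log2(CPM + 0.1) minus the mean of the 5 CTRL libraries for that chain. Rows are grouped into basement membrane, fibrillar and other chains and ordered by fold change. The top row, Lamc3, is high in all 3 OPA1 LKO libraries, whereas Col1a1, Col3a1 and Col6a2 are highest in OPA1 LKO replicate 2.

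A laminin is a trimer of one alpha, one beta and one gamma chain, and the alpha chain carries the main sites that cell receptors bind. Lama5, the alpha chain of many basement membranes under mature epithelia, was at 4.83, 3.88, 5.20, 3.77 and 4.93 CPM in the controls replicates 1 to 5 and at 15.3, 12.2 and 16.8 CPM in OPA1 LKO replicates 1 to 3. The lowest OPA1 LKO library was thus more than 2-fold above the highest CTRL library. Its log2 fold change was 1.70 ± 0.17 (SE; adjusted p = 0.00103, edgeR), and it stayed past the threshold without any one of the 8 libraries. Lama2, the alpha chain of muscle and mesenchymal basement membranes, was at 1.65, 0.618, 1.62, 0.823 and 0.974 CPM in the controls and 2.91, 7.83 and 2.78 CPM in OPA1 LKO. The groups did not overlap, but OPA1 LKO replicate 2 was 2.75 times the mean of replicates 1 and 3. For Lama2 the log2 fold change was 1.98 ± 0.44 (SE; adjusted p = 0.0295, edgeR) and 1.31 without that library, where the adjusted p was 0.107. Lama2 passed in 2 of the 8 fits without one library. The other alpha chains Lama1, Lama3 and Lama4 had log2 fold changes of 0.32 ± 0.21, 0.44 ± 0.28 and 0.39 ± 0.23 (SE), with overlapping groups, and none passed.

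Among the beta chains, Lamb1, which joins many laminins of vessels and embryonic tissue, was at 8.20 ± 1.26 CPM in the controls (SD, n = 5) and 13.4 ± 2.33 CPM in OPA1 LKO (SD, n = 3). Its log2 fold change of 0.71 ± 0.17 (SE) was the smallest among the called chains (adjusted p = 0.0423, edgeR), and 1 of the 8 fits with a library left out called it, the highest adjusted p being 0.151. Lamb2, the beta chain of synaptic and glomerular laminins, was at 4.78, 4.94, 5.09, 3.70 and 5.50 CPM in the controls and 7.34, 16.2 and 8.41 CPM in OPA1 LKO, where replicate 2 again held the highest value. That gave a log2 fold change of 1.15 ± 0.26 (SE; adjusted p = 0.0309, edgeR), or 0.71 without OPA1 LKO replicate 2 (adjusted p = 0.0829). Lamb2 passed in 3 of the 8 fits without one library. Lamb3, a beta chain of epithelial laminins, was at 6.30 ± 1.67 CPM in the controls (SD, n = 5) and 5.51 ± 1.67 CPM in OPA1 LKO (SD, n = 3). Its log2 fold change of -0.20 ± 0.29 (SE) changed sign without OPA1 LKO replicate 2. The Lamb3 locus overlaps Hsd11b1 on the opposite strand, a glucocorticoid-activating enzyme of hepatocytes at 609 ± 214 CPM in the controls, and the strand setting of the counting is not given in the sources used here, so the Lamb3 level is uncertain.

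Among the gamma chains, Lamc3, best known from retina and testis, was at 0.797, 0.562, 0.280, 0.412 and 0.286 CPM in the controls and 4.80, 5.98 and 5.56 CPM in OPA1 LKO, which in counts was 5 to 15 in a CTRL library and 94 to 133 in an OPA1 LKO library. No OPA1 LKO library came near the CTRL range. The log2 fold change was 3.52 ± 0.34 (SE; adjusted p = 0.000858, edgeR), with an adjusted p of at most 0.00806 when any one library was left out. Lamc1, the gamma chain of most laminins, was at 7.08 ± 2.27 CPM in the controls (SD, n = 5) and 9.52 ± 1.82 CPM in OPA1 LKO (SD, n = 3) and did not pass (log2 fold change 0.43 ± 0.26, SE).

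Collagen IV, the network-forming collagen of basement membranes, is encoded by 6 genes in 3 head-to-head pairs, so that each pair is transcribed outwards from one short region. The widespread network is made of the chains of Col4a1 and Col4a2, and the chains of Col4a3 to Col4a6 make the specialised networks of, among others, kidney, lung and some ducts. In the RefSeq genes of GRCm38.p6, the assembly of the mm10 build that the submitters name, Col4a1 and Col4a2 on chromosome 8 overlap by 85 bases at their starts and Col4a3 and Col4a4 on chromosome 1 by 114 bases, while 1274 bases separate Col4a5 and Col4a6 on the X chromosome. Sequences at the start sites are shown because both genes of each pair had positive fold changes. The first is the stretch of chr8:11312805-11312826 (plus strand, GRCm38.p6) that lies within both transcripts of the first pair as the RefSeq promoter table places their start sites. The next are the promoter window bases just upstream of each gene of the X-linked pair, written in the direction of its own gene, at chrX:141475169-141475369 (plus strand) and chrX:141474096-141474326 (minus strand). Capitals mark the letters GGGCGG or CCAAT on either strand, of which the Col4a6 stretch holds neither. Over the whole promoter window, which runs on into the gene, both Col4a5 and Col4a6 hold GGGCGG.
Col4a1 and Col4a2: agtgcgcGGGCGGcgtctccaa
Col4a5: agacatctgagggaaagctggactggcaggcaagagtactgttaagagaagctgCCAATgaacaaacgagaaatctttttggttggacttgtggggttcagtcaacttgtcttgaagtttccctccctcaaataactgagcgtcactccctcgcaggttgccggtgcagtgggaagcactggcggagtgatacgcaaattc
Col4a6: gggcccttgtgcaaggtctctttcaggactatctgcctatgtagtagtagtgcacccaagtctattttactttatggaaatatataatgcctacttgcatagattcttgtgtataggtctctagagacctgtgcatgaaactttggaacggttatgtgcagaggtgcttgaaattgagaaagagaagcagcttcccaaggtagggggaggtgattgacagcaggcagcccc

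All 6 collagen IV genes had positive fold changes and 4 of them passed. Col4a1 was the most abundant, at 36.4, 17.1, 28.1, 11.1 and 22.5 CPM in the controls and 53.6, 47.3 and 32.1 CPM in OPA1 LKO. One OPA1 LKO library lay below CTRL replicate 1, and the log2 fold change of 0.94 ± 0.32 (SE) did not pass (adjusted p = 0.116, edgeR) except when CTRL replicate 1 was left out. Its partner Col4a2 was at 21.2, 11.6, 16.4, 8.37 and 13.6 CPM in the controls and 41.8, 29.4 and 28.1 CPM in OPA1 LKO, with no overlap. Col4a2 was higher by 1.21 ± 0.26 on the log2 scale (SE; adjusted p = 0.0268, edgeR) and passed in 4 of the 8 fits without one library. In TPM the ratio of Col4a1 to Col4a2 was 1.54 ± 0.169 in CTRL (SD, n = 5) and 1.31 ± 0.234 in OPA1 LKO (SD, n = 3; exact two-sided permutation p = 0.143).

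The pair Col4a5 and Col4a6 rose from low levels. Col4a5 was at 0.584, 0.169, 0.783, 0.549 and 0.859 CPM in the controls and 3.19, 5.35 and 3.37 CPM in OPA1 LKO, a log2 fold change of 2.74 ± 0.42 (SE; adjusted p = 0.00642, edgeR) that held without any one library. Col4a6 had 1 to 5 counts in a CTRL library and 19, 33 and 11 counts in the OPA1 LKO libraries, with a log2 fold change of 2.59 ± 0.51 (SE; adjusted p = 0.0192, edgeR) that passed in 5 of the 8 fits without one library. Both genes were low in all 5 CTRL libraries and highest in OPA1 LKO replicate 2. In the other pair, Col4a3 was at 0.364 ± 0.113 CPM in the controls (SD, n = 5) and 1.21 ± 0.202 CPM in OPA1 LKO (SD, n = 3; adjusted p = 0.0265, edgeR), and Col4a4 was at 0.305 ± 0.204 and 1.04 ± 0.454 CPM. Col4a3 passed in 3 of the 8 fits without one library, with a highest adjusted p of 0.105, and did not pass without the count filter or with limma on log2(TPM + 1). For Col4a4 the adjusted p was 0.0869, though the groups did not overlap. Reads in the 114 shared bases of Col4a3 and Col4a4 could be assigned to either gene if strand was not used.

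**Figure D2:**
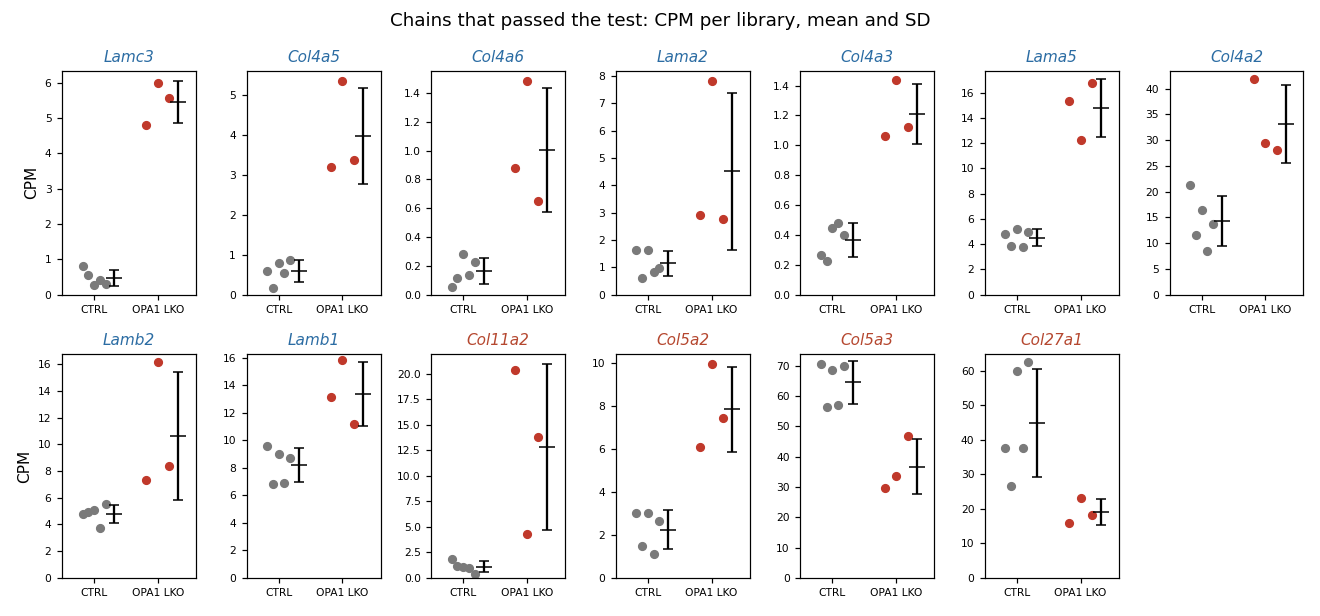
CPM in each library of 13 of the chains that passed the test, CTRL in grey and OPA1 LKO in red, with the mean and SD of each group beside the points. Blue titles mark basement membrane chains and red titles fibrillar chains. In each panel the 3 OPA1 LKO libraries lie on one side of the 5 CTRL libraries, and in Lama2 and Lamb2 OPA1 LKO replicate 2 lies far above the other OPA1 LKO libraries.

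The promoter of Lama5 is shown as that of the most abundant laminin alpha chain with a called change. Its sequence in the RefSeq table, outside the annotated gene, is at chr2:180225905-180226109 (minus strand, GRCm38.p6), with the letters GGGCGG on either strand in capitals.
Lama5: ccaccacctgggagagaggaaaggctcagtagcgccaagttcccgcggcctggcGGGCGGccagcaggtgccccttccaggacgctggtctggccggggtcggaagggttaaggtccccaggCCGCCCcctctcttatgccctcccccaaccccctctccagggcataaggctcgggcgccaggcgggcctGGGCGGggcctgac

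Of the 45 chains 33 had a promoter window of 250 bases before and 50 after a start site in that table. The letters GGGCGG, the core of the GC box, were found on either strand in 23 of these 33 genes (69.7%) and in 38.2% of the 27025 genes of the table. Over the whole window they were found in 7 of the 8 chains that were called higher and have a window, all but Lamb2. CCAAT was found in 11 of the 33 (33.3%) against 41.1% of all genes, TATAAA in 3 (9.09%) against 15.7%, and TGANTCA, where N is any base, in 1 (3.03%) against 8.97%. These are matches of letters only.

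Fibrillar chains moved in both directions. Of 9 chains 8 could be tested, of which 2 were higher and 2 were lower in OPA1 LKO, against 3.34% and 2.69% of all genes. The median log2 fold change of the 8 was 0.86. Summed over the class, the level was 19.1 to 49.8 TPM in CTRL, highest in CTRL replicate 1, and 28.5 to 54.8 TPM in OPA1 LKO, highest in replicate 2, so the groups overlapped. Col5a2, a chain of the type V collagen that sits inside collagen I fibrils and limits their width, was at 3.03, 1.46, 3.02, 1.10 and 2.64 CPM in the controls and 6.10, 9.99 and 7.46 CPM in OPA1 LKO. All OPA1 LKO values were at least 2 times the highest CTRL value. Col5a2 rose by 1.79 ± 0.33 on the log2 scale (SE; adjusted p = 0.0152, edgeR) and passed in 6 of the 8 fits without one library. Col11a2, a chain of the cartilage collagen XI, was at 1.86, 1.12, 1.06, 0.960 and 0.401 CPM in the controls and 20.4, 4.27 and 13.8 CPM in OPA1 LKO. It was low in CTRL and varied widely within OPA1 LKO, with the lowest value in replicate 2. The log2 fold change of Col11a2 was 3.55 ± 0.50 (SE; adjusted p = 0.0045, edgeR), with an adjusted p of at most 0.0267 without any one library.

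The fibrillar chains that were lower were among the most abundant chains in CTRL. Col5a3, the third and more restricted chain of type V collagen, was at 70.6, 56.4, 68.7, 57.0 and 70.0 CPM in the controls and 29.6, 33.8 and 46.9 CPM in OPA1 LKO. The log2 fold change was -0.81 ± 0.17 (SE; adjusted p = 0.0264, edgeR). Col27a1, a fibrillar collagen best known from cartilage, was at 37.6, 26.6, 59.9, 37.5 and 62.5 CPM in the controls and 15.8, 23.3 and 18.3 CPM in OPA1 LKO, a log2 fold change of -1.23 ± 0.29 (SE; adjusted p = 0.0353, edgeR). Neither overlapped between groups, yet CTRL varied more than 2-fold for Col27a1. Col5a3 passed in 5 and Col27a1 in 2 of the 8 fits without one library, with a highest adjusted p of 0.139 and 0.169, both without OPA1 LKO replicate 1. Col5a1, the partner of Col5a2 and Col5a3, had a log2 fold change of 0.36 ± 0.24 (SE) with overlapping groups, so the 3 type V genes had a rise, a fall and no call.

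The chains of collagens I and III, which make up most of the collagen of fibrous scar, did not pass the test. Col1a1 was at 28.04, 3.43, 13.2, 4.67 and 14.3 CPM in the controls and 17.6, 41.8 and 16.7 CPM in OPA1 LKO. Col1a2 was at 24.96, 6.91, 17.2, 6.997 and 15.8 CPM in the controls and 19.4, 46.3 and 19.1 CPM in OPA1 LKO, and Col3a1 at 58.3, 12.9, 30.1, 18.4 and 31.6 CPM and 35.0, 87.4 and 30.9 CPM. In all 3 genes OPA1 LKO replicate 2 was the highest library and CTRL replicate 1 exceeded the other CTRL libraries. OPA1 LKO replicates 1 and 3 lay within the CTRL range only because of CTRL replicate 1 for Col1a1 and Col1a2. There both lay above every other CTRL library. For Col3a1 this held for OPA1 LKO replicate 1 but not for replicate 3. The log2 fold changes were 0.99 ± 0.58, 0.97 ± 0.44 and 0.76 ± 0.47 (SE), with adjusted p of 0.337, 0.214 and 0.365 (edgeR). Without OPA1 LKO replicate 2 they were 0.43, 0.42 and 0.12. Without CTRL replicate 1 they were 1.51, 1.27 and 1.14 (adjusted p = 0.073, 0.0670 and 0.0875, edgeR). None of the 3 passed in any of the 8 fits without one library. Col24a1, the untested chain of the class, had 1 to 17 counts per library.

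**Figure D3:**
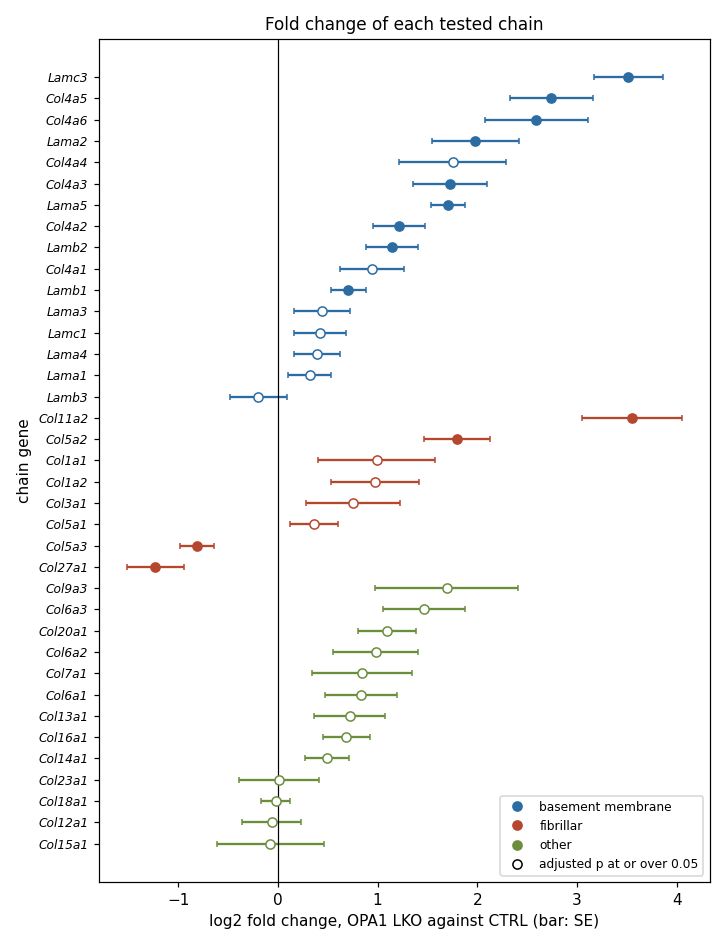
Log2 fold change of 37 of the tested chains, OPA1 LKO against CTRL, with bars of 1 SE. Filled points passed an adjusted p of 0.05. Of the 16 basement membrane chains drawn 9 are filled and lie to the right of 0, the fibrillar chains have 2 filled points on each side, and 0 of the 13 other chains are filled.

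The other collagens had no call. Of 19 chains 13 could be tested, and 0 were called in either direction by edgeR, although 6 were higher and 0 lower at an unadjusted p under 0.05. No share of all genes is given here for that unadjusted threshold, so the 6 cannot be weighed against all genes. DESeq2 called 2 of them higher, Col6a3 and Col20a1, where it called 6.03% of all genes higher and 6.10% lower. Col18a1, a multiplexin of vascular and epithelial basement membrane zones whose end fragment is endostatin, was by far the most abundant chain, at 94.9 ± 13.7 TPM in CTRL (SD, n = 5) and 104.2 ± 3.90 TPM in OPA1 LKO (SD, n = 3). It took 44.7% to 70.4% of the summed TPM of all 45 chains in a library. The next in mean level over all libraries were Col5a3 at 9.60, Col3a1 at 7.89, Col14a1 at 6.76 and Col4a1 at 5.34 TPM. In CPM Col18a1 was at 410, 440, 443, 498 and 556 in CTRL and 450, 444 and 491 in OPA1 LKO, with a log2 fold change of -0.02 ± 0.15 (SE) whose sign differed between scalings: it was 0.06 with upper-quartile factors and 0.14 on the log2(TPM + 1) scale. The locus also overlaps Slc19a1 on the opposite strand.

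Collagen VI forms beaded filaments around cells, from the chains of Col6a1, Col6a2 and Col6a3. Col6a3 was at 12.3, 3.54, 10.01, 5.35 and 9.74 CPM in the controls and 17.7, 36.9 and 13.3 CPM in OPA1 LKO, without overlap. Its log2 fold change of 1.46 ± 0.41 (SE) had an adjusted p of 0.0651 by edgeR, and 0.91 remained without OPA1 LKO replicate 2. Col6a1 was at 18.3, 8.43, 18.1, 7.34 and 12.5 CPM in the controls and 15.9, 36.6 and 16.9 CPM in OPA1 LKO, and Col6a2 at 8.07, 3.37, 6.65, 3.64 and 5.44 CPM and 5.86, 19.97 and 6.33 CPM. In both, OPA1 LKO replicate 2 was the only library outside the CTRL range. Their log2 fold changes were 0.84 ± 0.36 and 0.98 ± 0.43 (SE; adjusted p = 0.195 and 0.197, edgeR), and 0.34 and 0.16 without OPA1 LKO replicate 2. Col20a1, a FACIT collagen (a class that attaches to the surface of fibrils), was at 1.80 ± 0.434 CPM in the controls (SD, n = 5) and 3.87 ± 1.10 CPM in OPA1 LKO (SD, n = 3) with an adjusted p of 0.0533 by edgeR. Col14a1, a more abundant FACIT collagen, was at 38.4, 33.5, 33.7, 28.5 and 32.3 CPM in the controls and 38.0, 69.5 and 32.9 CPM in OPA1 LKO, where replicate 2 stood alone, and its log2 fold change of 0.49 ± 0.22 (SE) was 0.09 without that library. Col16a1, another FACIT collagen, differed by 0.69 ± 0.24 on the log2 scale (SE; adjusted p = 0.118, edgeR). The remaining tested chains Col7a1, Col9a3, Col12a1, Col13a1, Col15a1 and Col23a1 had mean levels of at most 1.15 TPM over all libraries and log2 fold changes from -0.08 to 1.69, with overlapping groups. The 6 untested chains Col6a4, Col6a5, Col6a6, Col8a1, Col8a2 and Col25a1 had at most 78 counts in all, and 52 of the 78 counts of Col6a5 were in OPA1 LKO replicate 2.

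Chains differed in how they varied among the OPA1 LKO libraries. Set against the mean of replicates 1 and 3, replicate 2 was more than 2-fold higher in 11 of the 38 tested chains, namely Lama2, Lamb2, Col1a1, Col1a2, Col3a1, Col6a1, Col6a2, Col6a3, Col13a1, Col15a1 and Col23a1. By this ratio Col6a2 was highest at 3.27, and 3.6% of all genes tested were above 2. The called chains that were lower in this library than in the mean of replicates 1 and 3 were Lama5, with a ratio of 0.763, Col4a2, with 0.842, Col5a3, with 0.883, and Col11a2, with 0.250. Lamc3 was at 1.15. Acta2, Myh11 and Tagln, genes of smooth muscle and myofibroblasts, had ratios of 22.0, 24.5 and 5.17 in the same library, and their part in the levels of the 11 chains was not tested.

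**Figure D4:**
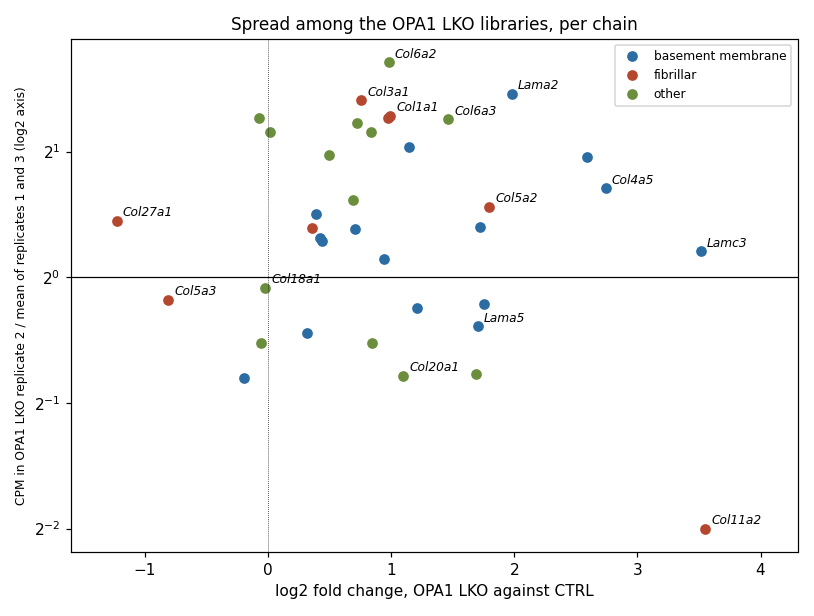
For 37 of the tested chains, the log2 fold change (horizontal axis) and the ratio of CPM in OPA1 LKO replicate 2 to the mean of replicates 1 and 3 (vertical axis, log2 scale). Col6a2, Col3a1, Col1a1 and Lama2 lie above a ratio of 2, Lamc3 lies at 1.15, and Lama5 and Col11a2 lie below 1.

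Pairs of chains were compared as ratios of TPM, which do not depend on library scaling. Some pairs join in one molecule, some are alternatives within it, and some, such as Col3a1 and Col1a1, belong to different collagens. Of 9 ratios, each tested by exact permutation of the group labels (two-sided, 56 arrangements), 0 passed after Benjamini-Hochberg adjustment over the 9, and 2 had an unadjusted p under 0.05. The ratio of Lama5 to Lama4, an alternative alpha chain found in vascular laminins, was 0.730, 0.844, 1.08, 0.763 and 0.938 in CTRL and 2.46, 1.44 and 2.87 in OPA1 LKO. All 3 OPA1 LKO libraries were above the CTRL range (p = 0.0179, the smallest the test can give, exact permutation; adjusted p = 0.161). The ratio of Col6a3 to Col6a1 was 0.271 ± 0.0642 in CTRL (SD, n = 5) and 0.418 ± 0.0718 in OPA1 LKO (SD, n = 3; exact permutation p = 0.0357, adjusted p = 0.161). The ratio of Col1a1 to Col1a2, the chains that join in a fixed proportion in collagen I, was between 0.437 and 0.986 in CTRL and between 0.767 and 0.798 in OPA1 LKO (exact permutation p = 0.482). Col3a1 to Col1a1 was at 3.04 ± 0.967 and 2.11 ± 0.127 (exact permutation p = 0.143, n = 5 and 3).

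**Figure D5:**
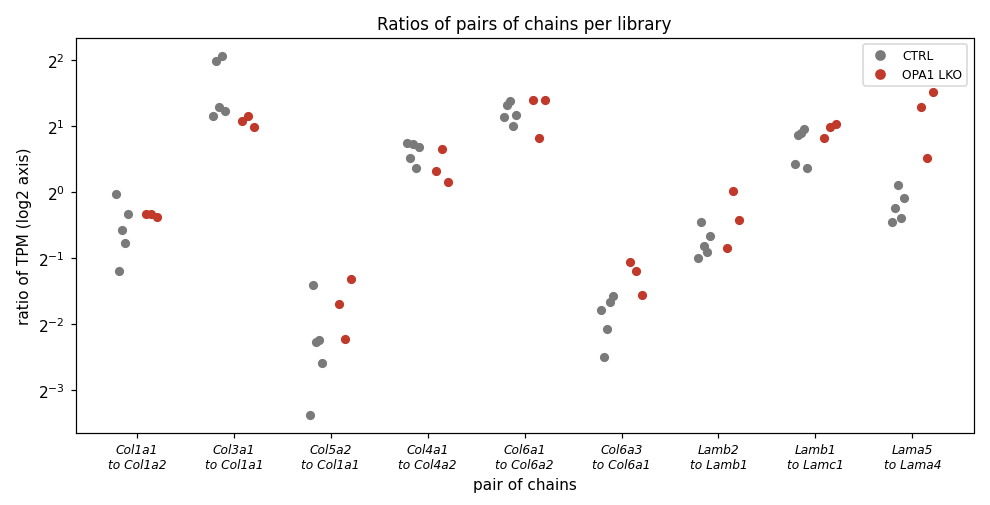
Ratio of TPM of 9 pairs of chains in each library (log2 axis), CTRL in grey and OPA1 LKO in red. Lama5 to Lama4 and Col6a3 to Col6a1 are the pairs in which the OPA1 LKO libraries lie above all CTRL libraries, and the Col1a1 to Col1a2 ratios of OPA1 LKO lie between 0.767 and 0.798.

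At the level of annotated transcripts, 49 of the 209 transcripts of the chains could be tested. None passed the edgeR test over 26349 transcripts, of which 0.0266% were called higher and 0.0304% lower. At an unadjusted p under 0.05 (edgeR), 13 of the 49 were higher and 2 lower, against 1011 and 1502 of all 26349 transcripts. DESeq2 called 8 of the 49 higher and 2 lower, against 1.98% and 2.46% of all transcripts. The single annotated transcript of Lamc3, NM_011836.3, came closest, with an adjusted p of 0.0659 by edgeR. For Col11a2 the estimates assigned 85.9% to 91.4% of the gene's TPM in OPA1 LKO to XM_006523571.1. This transcript was at 0.00, 0.02, 0.15, 0.17 and 0.08 TPM in CTRL and 4.24, 0.85 and 2.44 TPM in OPA1 LKO. It did not pass (adjusted p = 0.249, edgeR), and in CTRL replicates 1 and 2 other transcripts held most of the gene's TPM. For Col5a3 the estimates divided the gene between 2 transcripts unevenly: NM_016919.3 held 96.3% and 99.3% of its TPM in CTRL replicates 1 and 4 but 8.79% to 24.6% in the other CTRL libraries and 4.79% to 13.8% in OPA1 LKO. Which transcript carried the fall of Col5a3 was therefore not settled by these estimates.

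Genes that act on these chains were counted in lists, with values for those that passed, to be read against the 3.34% of all genes called higher and 2.69% called lower. Among 14 tested other basement membrane proteins 3 were higher and 0 lower, with a median log2 fold change of 0.57. These were Smoc2, Egflam and Frem1. Smoc2, a calcium-binding matrix protein, rose from 5.89 ± 1.40 to 18.7 ± 2.32 CPM. Egflam, which binds dystroglycan, rose from 0.0781 ± 0.0640 to 1.13 ± 0.228 CPM. Frem1, of the Fraser complex, rose from 0.509 ± 0.0847 to 1.46 ± 0.453 CPM. Among the fits without one library, Frem1 passed only without CTRL replicate 1 (adjusted p = 0.0228, edgeR). Without OPA1 LKO replicate 2 its adjusted p was 0.106 (edgeR). The core components perlecan (Hspg2), agrin (Agrn) and nidogens (Nid1, Nid2) had log2 fold changes of 0.41 ± 0.21, 0.27 ± 0.16, 0.69 ± 0.33 and 0.66 ± 0.22 (SE) and did not pass. Of 13 tested receptors 2 were higher and 0 lower, with a median of 0.86. They were Ddr1, a collagen-binding receptor tyrosine kinase of epithelia (from 1.71 ± 0.758 to 6.55 ± 2.10 CPM), and Bcam, a receptor for the chain of Lama5 (from 2.08 ± 0.536 to 5.99 ± 2.40 CPM). Without OPA1 LKO replicate 2 Bcam was lost and Itga6, a laminin-binding integrin subunit, was called. Without OPA1 LKO replicate 1 the receptor list had 0 calls, against 1.01% of all genes called higher. Without CTRL replicate 1 or 3 it had 4 or 5 calls higher, against 6.65% or 3.21% of all genes. The remaining fits without one library called Bcam and Ddr1. Itgb1, the beta subunit shared by most collagen and laminin integrins, differed by 0.03 ± 0.16.

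Of 27 tested genes for collagen modification, processing and crosslinking, 2 were higher and 1 lower (median 0.48), or 7.41% and 3.70% of them against 3.34% and 2.69% of all genes. P3h3, which belongs to the prolyl 3-hydroxylase family, was at 4.23 ± 1.14 CPM in the controls and 9.37 ± 3.73 CPM in OPA1 LKO, and Adamts14, a procollagen N-propeptidase, at 1.58 ± 0.553 and 4.41 ± 1.48 CPM. P3h3 passed in 1 of the 8 fits without one library and was at a log2 fold change of 0.77 in place of 1.15 without OPA1 LKO replicate 2 (adjusted p = 0.134, edgeR), and without CTRL replicate 1 the list had 6 calls higher and 1 lower. Tmem38b, a cation channel of the endoplasmic reticulum needed for collagen folding, was lower, at 53.1 ± 4.80 and 36.5 ± 4.99 CPM. Tmem38b passed in 2 and Adamts14 in 3 of the 8 fits without one library, with a highest adjusted p of 0.211 and 0.187 (edgeR). This list had 0 calls without CTRL replicate 2, 4 or 5 or OPA1 LKO replicate 1 or 3. The collagen chaperone gene Serpinh1 differed by 0.71 ± 0.32 on the log2 scale (SE) and did not pass. Among 21 interstitial matrix genes 3 were higher and 0 lower, with a median of 1.0005: Eln (elastin), Ctgf (the matricellular protein CCN2) and Mfap4, of elastic fibres, with log2 fold changes of 2.52 ± 0.39, 2.49 ± 0.42 and 2.66 ± 0.62 (SE). Mfap4 in OPA1 LKO replicate 2 was 5.89 times the mean of OPA1 LKO replicates 1 and 3. Without that library its log2 fold change was 1.27 (adjusted p = 0.145, edgeR). Among the fits without one library, Mfap4 passed only without CTRL replicate 1 or OPA1 LKO replicate 1. Without CTRL replicate 1 the interstitial list had 7 calls higher. Of 10 proteases and inhibitors 2 were higher and 0 lower, Mmp2 and Mmp7, which rose by 1.90 ± 0.42 and 7.22 ± 0.53 (SE), the latter from 0.0651 ± 0.0871 CPM. Without OPA1 LKO replicate 2 Mmp2 was at 1.18 and did not pass (adjusted p = 0.0990, edgeR). Among the fits without one library, Mmp2 passed only without CTRL replicate 1, CTRL replicate 3 or OPA1 LKO replicate 1. Without CTRL replicate 1 the protease list had 4 calls higher. Of 17 genes of the TGF-beta pathway, the main inducer of collagen genes in fibroblasts, 3 were higher and 0 lower (median 0.30), namely the ligand gene Tgfb3 and the latency protein genes Ltbp1 and Ltbp2. Their levels in OPA1 LKO replicate 2 were 2.72, 2.23 and 3.29 times the mean of replicates 1 and 3, their log2 fold changes fell from 1.88, 1.48 and 2.24 to 1.22, 0.98 and 1.41 without that library, and 0 of the 17 genes passed there. The TGF-beta list also had 0 calls without CTRL replicate 2, 4 or 5 or OPA1 LKO replicate 3. It had 1 call higher without CTRL replicate 3, 2 without OPA1 LKO replicate 1 and 5 without CTRL replicate 1. The counts of all these lists without CTRL replicate 1 are to be read against the 6.65% of all genes called higher there.

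Markers of cells that make these matrices were read beside the chains, as summed TPM per library and as calls, against 3.34% of all genes called higher and 2.69% lower. Of 12 cholangiocyte markers 5 were higher (Krt7, Sox9, Spp1, Prom1 and Cd24a) and 0 lower, the median log2 fold change was 1.88, and the sum was 20.8 to 63.6 TPM in CTRL and 128.5 to 210.4 TPM in OPA1 LKO. In OPA1 LKO most of that sum was Spp1 (osteopontin), which rose from 22.7 ± 7.36 to 154.0 ± 28.5 CPM. Without Spp1 the sum was 7.67 to 49.2 TPM in CTRL, highest in CTRL replicate 3, and 29.6 to 42.5 TPM in OPA1 LKO. The duct keratin Krt19 was at 22.3 CPM in CTRL replicate 3, at 0.319 to 1.03 CPM in the other CTRL libraries and at 2.13 to 5.67 CPM in OPA1 LKO. Without CTRL replicate 3, 11 of the 12 markers were higher, against 3.21% of all genes. Krt19 was then at a log2 fold change of 2.42 in place of -0.50 and Epcam at 3.48 in place of 0.96. Without OPA1 LKO replicates 1, 2 and 3 in turn, 3, 4 and 3 markers were higher, against 1.01%, 3.03% and 1.10% of all genes. Krt7 was lost without CTRL replicate 2 and without each OPA1 LKO replicate in turn (for replicate 2, adjusted p = 0.0605, edgeR). Prom1 was also lost without OPA1 LKO replicate 1, and Sox9 without OPA1 LKO replicate 3. The remaining fits without one library called 4 or 5 markers higher.

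Of 12 stellate cell markers 2 were higher, Hand2 and Cygb, and 0 lower (median 0.52), and the sum was 119.6 to 188.3 TPM in CTRL and 165 to 302.7 TPM in OPA1 LKO, highest in replicate 2. Without that library Cygb did not pass (adjusted p = 0.0807, edgeR). Among the fits without one library, Cygb passed only without CTRL replicate 1, 3 or 4. The stellate cell enzyme gene Lrat differed by 0.02 ± 0.18. Of 7 myofibroblast markers 1 was higher, Spp1, and without it the sum was 6.77 to 19.98 TPM in CTRL and 7.98 to 57.1 TPM in OPA1 LKO. Of 10 tested portal fibroblast and mesothelial markers 3 were higher, Eln, Entpd2 and Mfap4, with sums of 4.76 to 20.2 and 18.8 to 43.3 TPM. With a library left out, Mfap4 passed only without CTRL replicate 1 or OPA1 LKO replicate 1. None of the 10 sinusoidal endothelial, 8 vascular endothelial, 3 tested smooth muscle and 10 macrophage markers passed the edgeR test, and the smooth muscle sum was highest, at 22.65 TPM, in OPA1 LKO replicate 2. Without CTRL replicate 1, the macrophage genes Gpnmb and Trem2 were called higher, at log2 fold changes of 3.15 and 1.24, as were the endothelial gene Cd34 and the smooth muscle gene Smtn, the last also without CTRL replicate 3. The macrophage sum was highest in CTRL replicate 1, at 606 TPM against 76.7 to 205.5 TPM in the other CTRL libraries. No marker of these lists was at 0 in all libraries, and the part of the marked cells in the levels of the chains was not tested.

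Over all 38 tested chains, 12 were called higher and 2 lower, 24 were not called, and the median log2 fold change was 0.89. In 15 chains all OPA1 LKO libraries lay above all CTRL libraries and in 2 they lay below, against 8.0% and 8.41% of all genes. The 12 rises were not equally steady. Of these, 5 were called in all 8 fits with a library left out, Lama5, Lamc3, Col4a5 and Col11a2 among them, and neither of the 2 falls was. Without CTRL replicate 1 all 12 rises and both falls were kept and Col4a1, Col6a3, Col9a3 and Col20a1 were added, when 6.65% of all genes were called higher and 5.59% lower. Without OPA1 LKO replicate 2 the fit kept 6 of the 12 rises and neither fall and added Col20a1, when 3.03% of all genes were called higher and 1.66% lower, and the rises lost were Lama2, Lamb1, Lamb2, Col4a3, Col4a6 and Col5a2. Without OPA1 LKO replicate 1, 7 chains were called higher and 0 lower (1.01% and 0.377% of all genes). Without OPA1 LKO replicate 3, 5 were called higher and 1 lower (1.10% and 0.498%). Without CTRL replicates 2, 3, 4 and 5 in turn, 7, 11, 9 and 7 chains were called higher (1.79%, 3.21%, 2.18% and 1.79% of all genes) and 2, 1, 1 and 0 lower (1.39%, 1.90%, 1.38% and 1.23%).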

How the data were processed

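Per the labels' protocols, liver total RNA went through a miniprep kit and a stranded mRNA library kit. According to the submitters' processing notes the tools were STAR, RSEM, MultiQC and StringTie (no versions) on build mm10. The annotation release and the strand setting of counting are not stated in the sources used. The authors deposited RSEM expected counts, which are not normalised, and TPM, both per gene and per transcript. RSEM assigns reads that fit several genes or transcripts by estimation.

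Expected counts were rounded, filtered with filterByExpr (count minimum 10, total 15; 14036 genes left), scaled by TMM and tested with edgeR 4.0.16 in R 4.3.3 (quasi-likelihood, group only, Benjamini-Hochberg adjustment over all genes, threshold 0.05). Each standard error is the absolute log2 fold change over the square root of F. Library totals of 16076404 to 20471271 leave chains with under 10 counts per library imprecise. DESeq2 1.42.0, limma 3.58.1 on log2(TPM + 1), RLE and upper-quartile factors, no filter, a replicate block and leaving out each library were alternatives. The procedure was tested on simulated data.

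The members and all lists were chosen with earlier results of these data known. All 200 list entries matched a gene. Chains past the threshold and the 5 most abundant per class are given in full, with the called genes of each pathway list (at most 4). Other chains, and the uncalled list genes, the markers and Apoe, Acta2, Myh11, Tagln and Hsd11b1, were named after their values were seen. Same-numbered libraries of the groups deviated together with correlations of 0.072, 0.0537 and 0.1751 and so were not treated as pairs. Promoter sequences are from RefSeq (GRCm38.p6) and overlaps of genes on the opposite strand from GENCODE for GRCm38. Protein features of the chains were not analysed here. One chain is included in the counts but is not reported here.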

Additional observations from a re-analysis of the deposited data

Results flagged for a closer look

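Among the 38 tested chains, 1 control value stood far from the rest of its group. Col9a3, a FACIT collagen of cartilage, was at 0.797 CPM in CTRL replicate 1 and at 0.0573 to 0.169 CPM in the other CTRL libraries, a gap of 0.850 of the group's range against a limit of 0.71. Chance alone takes a value past that limit in about 1 in 20 groups. In OPA1 LKO it was at 0.693, 0.585 and 1.30 CPM.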

How the results depend on the processing

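DESeq2, RLE and upper-quartile factors kept all 12 rises and both falls among the chains, and without a count filter 10 rises were kept. Limma on log2(TPM + 1), whose scale shifted the all-gene median by 0.159, called 5 basement membrane, 2 fibrillar and 1 other chain higher. It called 0 chains lower (fibrillar 0). Of the transcripts of the chains it called 2 higher and 0 lower, against 83 and 18 of all 26349 transcripts. No share of all genes is given here for limma, RLE or upper-quartile factors, no filter or the replicate block. DESeq2 called 2 other chains, and 8 transcripts higher and 2 lower. Upper-quartile factors called 1 other chain. The fit with a replicate block called 5 chains higher and 0 lower, of them 4 basement membrane and 1 fibrillar higher and 0 fibrillar lower; the numbers were not shown to pair the samples (correlations of 0.072, 0.0537 and 0.1751). With one library left out, 5 to 16 chains were called higher and 0 to 2 lower, with 4 to 11 basement membrane and 1 to 2 fibrillar higher, 0 to 2 fibrillar lower and 0 to 3 others higher. The log2 fold change of Col18a1 was 0.0635 with upper-quartile factors, 0.1446 by limma, 0.0988 with the replicate block and -0.0665 to 0.0439 with one library left out. That of Lamb3 was -0.4065 to 0.0253, and the log2 difference in the Col6a1 to Col6a2 ratio was 0.0033 and ran from -0.0936 to 0.1923. The cause of these changes was not tested, except that leaving out a library reduces the samples. Counts of a few reads per library limit Col4a3, Col4a4 and Col4a6.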
